A study of Rattus norvegicus with 12 samples.

Results

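Activin, its antagonist follistatin and the Smad proteins form a growth factor pathway, and 10 of its genes were followed through 120 min of PACAP38 treatment in PC12 cells. The genes were *Inhba*, *Inhbb*, *Fst*, *Fstl3*, *Acvr1b*, *Acvr2a*, *Smad3*, *Smad7*, *Skil* and *Bambi*, taken as all probes outside the control spots whose gene name equals one of these symbols. This gave 19 of the 41012 probes on the array, and 10 of its 33212 gene names. PC12 is an established cell line from a rat adrenal pheochromocytoma, and PACAP38 is a neuropeptide that acts on these cells through G protein-coupled receptors. All cells grew in medium with serum, on dishes coated with collagen. The treated groups received 1e-07 M PACAP38 for 5, 10, 15, 30, 60 or 120 min, and each had a control of its own time point without PACAP38. RNA (n = 6) was pooled within each group, so that a time point consisted of 1 treated pool and 1 control pool, both of 1 line. The 2 pools were hybridized together on 2 Agilent whole rat genome arrays of 2 colours, with the dyes exchanged, on 12 arrays in all. Both arrays hold the same RNA, so the pair of ratios shows the error of the measurement and not that between cultures. A single time point therefore carries no test.

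Per array, 38.4 to 49.6% of spots had a control signal well above background and 39.8 to 48.9% a PACAP38 signal, and none was saturated. All 9 PC12 markers on the array, among them *Th*, *Dbh* and *Chga*, were well above background in all 6 control pools. Of the markers for other cells, *Col1a1* and *Pdgfra* of 5 fibroblast genes and *Cd68* of 4 leukocyte genes were so in all pools, and none of 3 endothelial or 4 adrenal cortex genes was in any. Their part in the results was not tested. In pooled RNA, fewer cells that express a gene and less RNA per cell cannot be told apart. The arrays of 60 and 120 min lay on 1 slide, those of 15 and 30 min and those of 5 and 10 min on 2 others.

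Activins are dimers of inhibin β subunits, and *Inhba* encodes the βA subunit of activin A and *Inhbb* the βB subunit. Activin binds a type II receptor such as the *Acvr2a* product, which recruits the type I receptor encoded by *Acvr1b*, and this receptor phosphorylates Smad2 and Smad3. Follistatin (*Fst*) and the follistatin-like protein of *Fstl3* bind activin outside the cell. Inhibition inside the cell comes from Smad7, which blocks the type I receptor, from SnoN, the product of *Skil*, which represses Smad complexes in the nucleus, and from BAMBI, a pseudoreceptor without a kinase. Activin A is known as a factor for neuronal differentiation and survival.

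The results turn on the probes of 5 of these genes, and a choice of their sequences, with at least 1 probe of each gene, is shown here, 5′ to 3′, as the scanner files hold them. Positions were read from the annotation in the files, on rat build rn4. The *Inhba* probe lies in the part that encodes the end of the mature βA subunit, the *Inhbb* probe spans 2632 bases of the genome and so crosses an intron, and the *Skil* probe spans 936 bases. The 2 *Fst* probes start 72 bases apart.
Inhba A_44_P459144 (chr17:57244604-57244663, minus strand): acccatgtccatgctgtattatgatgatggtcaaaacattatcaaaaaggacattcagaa
Inhbb A_44_P332702 (chr13:32173603-32176234, minus strand): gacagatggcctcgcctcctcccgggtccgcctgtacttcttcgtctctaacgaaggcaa
Fst A_44_P108588 (chr2:46543227-46543286, minus strand): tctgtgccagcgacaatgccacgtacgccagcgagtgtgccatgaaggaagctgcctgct
Fst A_43_P11465 (chr2:46543299-46543358, minus strand): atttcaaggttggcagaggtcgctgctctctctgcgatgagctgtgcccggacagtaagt
Skil A_44_P277264 (chr2:116669646-116670581, minus strand): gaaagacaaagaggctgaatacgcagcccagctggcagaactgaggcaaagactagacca
Bambi A_43_P13355 (chr17:62654418-62654477, minus strand): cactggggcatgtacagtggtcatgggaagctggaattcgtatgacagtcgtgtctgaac

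A call, higher or lower, required that each array of the pair showed a 2-fold difference or more in that direction with a spot p-value of the scanner software below 0.01. None of the 19 probes was called at 5, 10, 15 or 30 min, when 0%, 0.0659%, 0.117% and 0.351% of all probes were called in either direction. At 60 min 7 of the 19 probes, from *Inhba*, *Fst* and *Skil*, were called higher, against 0.871% of all probes, and none was called lower, against 0.376%. At 120 min 8 probes were called higher, against 1.95% of all probes, and none lower, against 1.53%, with the *Bambi* probe added to the earlier 7. By the brightest probe of each gene this made 3 genes at 60 min and 4 genes at 120 min, and neither *Inhbb*, *Fstl3*, nor a receptor or Smad gene was among them. A probe passed the background filter if either RNA was well above background on the 2 arrays of some time point, and 13 of the 19 probes, from 8 of the 10 genes, did so. *Inhba* and *Fst* passed it through the treated pools of 60 and 120 min.

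**Figure D1:**
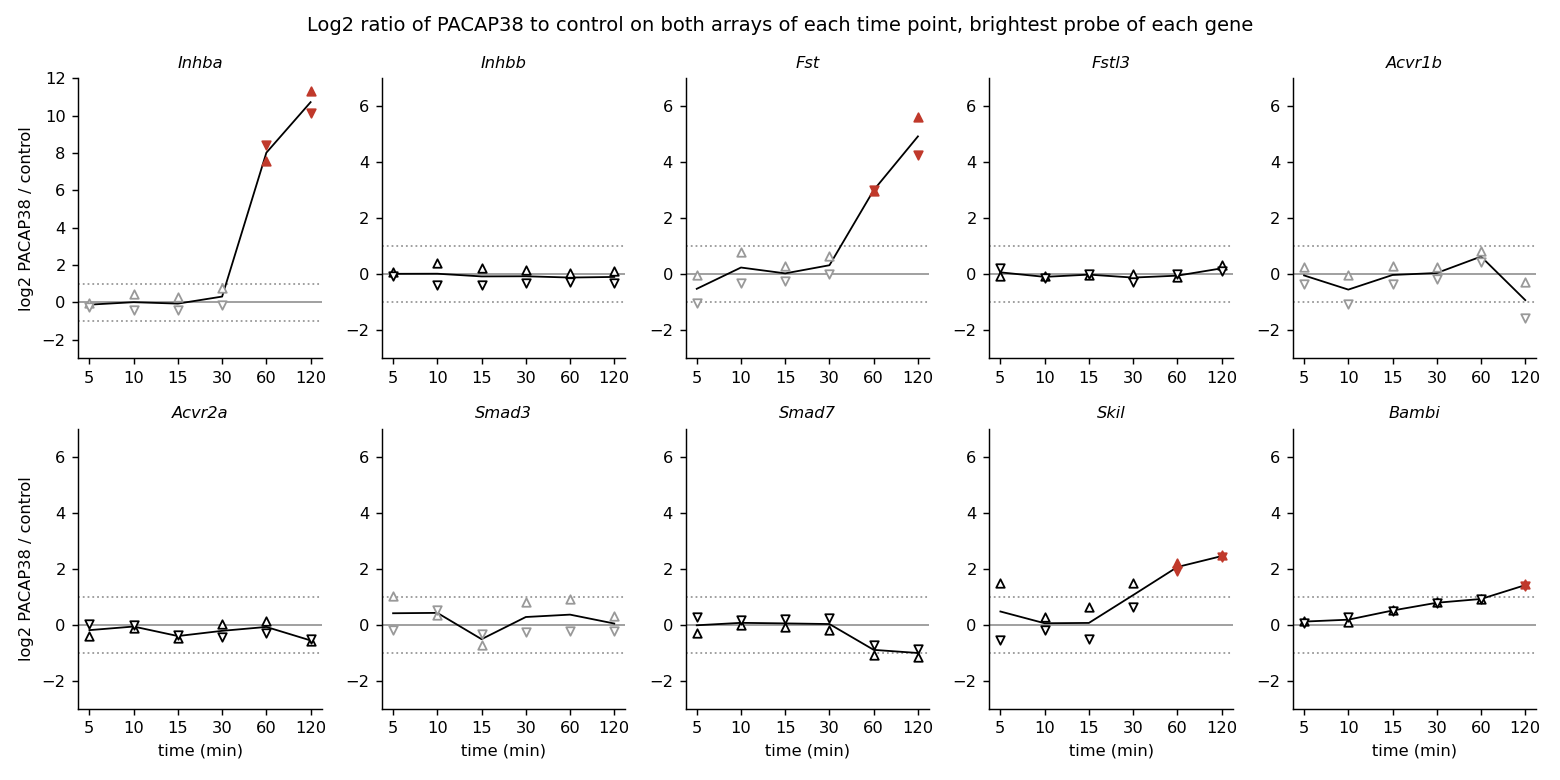
Log2 ratio of PACAP38 to control for the brightest probe of the 10 genes at the 6 time points. Triangles are single arrays (upward, PACAP38 in Cy5; downward, PACAP38 in Cy3), lines join their means, filled red marks time points called higher, grey marks time points where both RNAs were too dim to give a fold, and dotted lines stand at 2-fold; the axis of *Inhba* is longer than the others. The control of *Inhba* and *Fst* was not well above background at any time, so that their ratios are given as bounds in the text. Red symbols appear for *Inhba*, *Fst* and *Skil* at 60 and 120 min and for *Bambi* at 120 min.

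*Inhba*, the activin A subunit gene, was not well above background with PACAP38 on any of its 3 probes up to 15 min and was called higher on all 3 at 60 and 120 min. On the brightest probe, at chr17:57240473-57240532 (rn4), the signal with PACAP38 was 4.95, 5.11, 5.30 and 5.58 at 5, 10, 15 and 30 min, none of them well above background, then 988 at 60 min and 15691 at 120 min. A signal here is the processed intensity of a channel after normalization of the average intensity between arrays, averaged over both arrays. The control pools read 5.42, 5.10, 5.59, 4.53, 3.81 and 9.25 and were not well above background at any time point, so the 2 late pools stand apart from all other 10. A fold against such a control is given as a lower bound, which depends on the floor set for the dim signal. It was at least 56.3-fold at 60 min and at least 764-fold at 120 min. Background correction with normexp and an offset of 50, followed by loess, gave smaller log2 folds of 2.82 and 6.19 at these times, and both were still called.

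A second *Inhba* probe, 521 bases further upstream at chr17:57240994-57241053, gave the same time course, with 102 at 60 min and 1282 at 120 min against controls between 3.92 and 6.28, none of them well above background. The bounds were at least 5.80-fold and at least 62.5-fold. The coding-sequence probe, 4131 bases upstream of the first, differed in its control pools. With PACAP38 it read 5.55, 6.61, 6.46, 26.7, 351 and 4158 from 5 to 120 min, and in the control 6.00, 4.95, 5.40, 20.3, 37.9 and 398. On this probe both RNAs were measured on both arrays at 60 and 120 min, while none of the control readings up to 15 min was well above background, and the folds were 9.26 (11.5 and 7.47 on the 2 arrays) and 10.5 (14.4 and 7.61). The 30 min value rests on 1 array, where both channels were near 64, while the other array read 11.2 and 6.41. A control signal that increases with the treated signal is thus seen on 1 of the 3 probes, and the source of that control signal was not tested.

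*Inhbb*, the other ligand subunit, was expressed in untreated cells and its ratio stayed near 1. Its brightest probe read 159.73, 178.61, 178.23, 146.98, 169.28 and 185.01 with PACAP38 and 158.07, 176.33, 188.09, 154.58, 183.73 and 197.81 in the control, and the 2 sets overlap. The folds were between 0.921 and 1.01, and the mean log2 fold over the 6 time points was -0.06, with a 95% interval from -0.16 to 0.05 (limma, intercept only), which bounds a mean change on this probe. Both other *Inhbb* probes were at or near background, with ratios that followed the dye: with PACAP38 in Cy5 one of them gave 0.177 to 0.407 and with PACAP38 in Cy3 2.48 to 4.86.

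*Fst*, the activin-binding antagonist, was called higher at 60 and 120 min, as was *Inhba*. Its brightest probe read 8.09, 12.1, 9.11 and 9.74 with PACAP38 from 5 to 30 min, with none well above background, and then 53.1 at 60 min and 490 at 120 min. The control pools read 11.6, 10.2, 8.92, 7.79, 6.60 and 16.1, and none was well above background. The bounds for PACAP38 over control were thus 3.02-fold (60 min) and 20.7-fold (120 min), each at least. On the second *Fst* probe these bounds were 2.80-fold and 18.4-fold (each at least), where PACAP38 read 49.2 and 378 and the control of 120 min 6.73 and 13.4 on its 2 arrays. Both probes were called higher at both times, and the 2 late treated pools lie above all control pools on each. The call of the brightest probe at 60 min was lost with normexp background correction, where its log2 fold was 0.23 with loess, and that at 120 min was lost with normexp and median centring, at 1.16.

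*Fstl3* encodes a second follistatin-type antagonist and, unlike *Fst*, was well above background in all 12 pools. It read 2514, 2491, 2331, 2335, 2159 and 2447 with PACAP38 and 2400.0, 2658, 2354, 2537, 2236 and 2115 in the control. The 2 sets overlap, the folds were between 0.920 and 1.16, and the mean log2 fold was -9.8e-05 with a 95% interval from -0.13 to 0.13 (limma). The difference between the slopes of *Fst* and *Fstl3* was not tested.

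**Figure D2:**
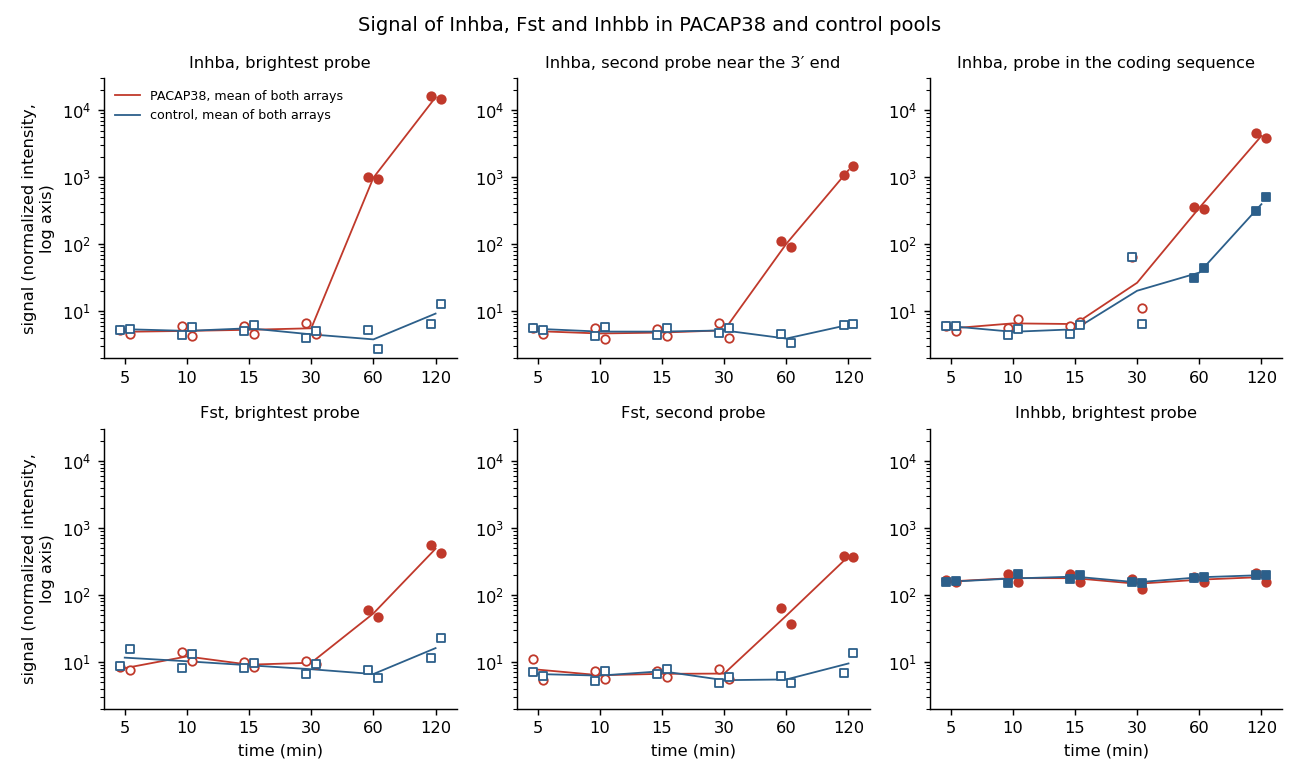
Normalized signal (log axis) of the 3 *Inhba* probes, both *Fst* probes and the brightest *Inhbb* probe against time. Circles are PACAP38 and squares control on single arrays (left, PACAP38 in Cy5; right, PACAP38 in Cy3), lines join the means, and open symbols mark an RNA that was not well above background on both arrays. The treated *Inhba* and *Fst* signals leave the control at 60 min, while the control of the coding-sequence *Inhba* probe reaches 398 at 120 min and *Inhbb* stays between 147 and 198 in all pools.

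Neither receptor gene was called at any time point. The single *Acvr1b* probe and both *Smad3* probes were well above background in no pool, so no fold is given for the type I receptor or for the receptor-regulated Smad. The brightest probe of *Acvr2a*, the type II receptor, read 73.6, 141, 116, 110.3, 92.9 and 91.0 with PACAP38 and 83.8, 147, 153, 128, 97.8 and 134 in the control. The treated value was below its control at all 6 time points, with folds from 0.680 to 0.959, but the 2 sets overlap and the 5 min value was well above background on 1 of 2 arrays. The mean log2 fold was -0.25 with a 95% interval from -0.43 to -0.07, and its adjusted p was 0.531 (limma). The second *Acvr2a* probe was well above background at 60 min alone, with a fold of 1.06. Over all probes tested 0% passed an adjusted p of 0.05 for the mean, and 1845 of 20203 had an unadjusted p below 0.05, as had 3 of the 8 genes here (*Acvr2a*, *Skil* and *Bambi*).

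Among the inhibitors inside the cell, *Skil* and *Bambi* were called higher and *Smad7* had values in the opposite direction. *Skil*, the gene of the Smad corepressor SnoN, read 57.1, 93.2, 80.6, 148, 274 and 345 with PACAP38 on its brightest probe, and 41.0, 89.6, 76.8, 71.0, 65.4 and 62.9 in the control. The treated pools of 10, 30, 60 and 120 min lie above every control pool. At 10 min the margin was narrow, 93.2 against 89.6 in its own control, with a fold of 1.04 (1.23 and 0.883 on the 2 arrays). Its fold was 2.09 at 30 min (2.81 and 1.56, not called). The call at 60 min had a fold of 4.20 (4.61 and 3.82), and that at 120 min had 5.49 (5.61 and 5.39). At 5 min the 2 arrays disagreed, with 2.86 and 0.680. The intron-spanning probe of *Skil* was also called at both times, with 2.38-fold (2.70 and 2.10) and then 2.67-fold (2.53 and 2.81). With normexp and loess the log2 fold of the brightest probe was 0.84 at 60 min and 0.92 at 120 min, and neither was called. The remaining *Skil* probe was well above background with PACAP38 on 1 array at 60 and at 120 min and was not called. Its 2 arrays gave ratios of 3.40 and 2.60 at 60 min and disagreed at 120 min, with 6.27 and 1.01.

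*Bambi*, the pseudoreceptor gene, was well above background in all 12 pools and was called at 120 min. With PACAP38 it read 5412, 6570, 7492, 8899, 8401 and 11521, and in the control 4989, 5776, 5246, 5144, 4423 and 4302. All treated pools from 10 min on lie above every control pool. Both arrays gave close values, with a fold of 1.43 after 15 min (1.44 and 1.41) and 1.73 after 30 min (1.75 and 1.71). After 60 min it was 1.90 (1.90 and 1.90), and after 120 min 2.68 (2.73 and 2.62). The call at 120 min is therefore the point where the fold crossed the limit of 2, and the spot p-values were already below 0.01 on both arrays at 30 and 60 min. With normexp and median centring the log2 fold at 120 min was 1.11 and was not called.

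*Smad7* encodes the inhibitory Smad that blocks the type I receptor. It read 562, 927, 808, 816, 396 and 428 with PACAP38 and 568, 881, 779, 799.7, 735 and 859 in the control, so the treated pools of 60 and 120 min, with that of 5 min, lie below every control pool, the last by less than 6 units. The folds were 0.990, 1.05, 1.04 and 1.02 up to 30 min, then 0.538 (0.472 and 0.615) and 0.498 (0.447 and 0.555). Its spot p-values were below 0.01 on both arrays at both late times, but the fold passed 0.5 on 1 of the 2 arrays, and so *Smad7* was not called. With a fold limit of 1.5 it was called lower at both times.

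**Figure D3:**
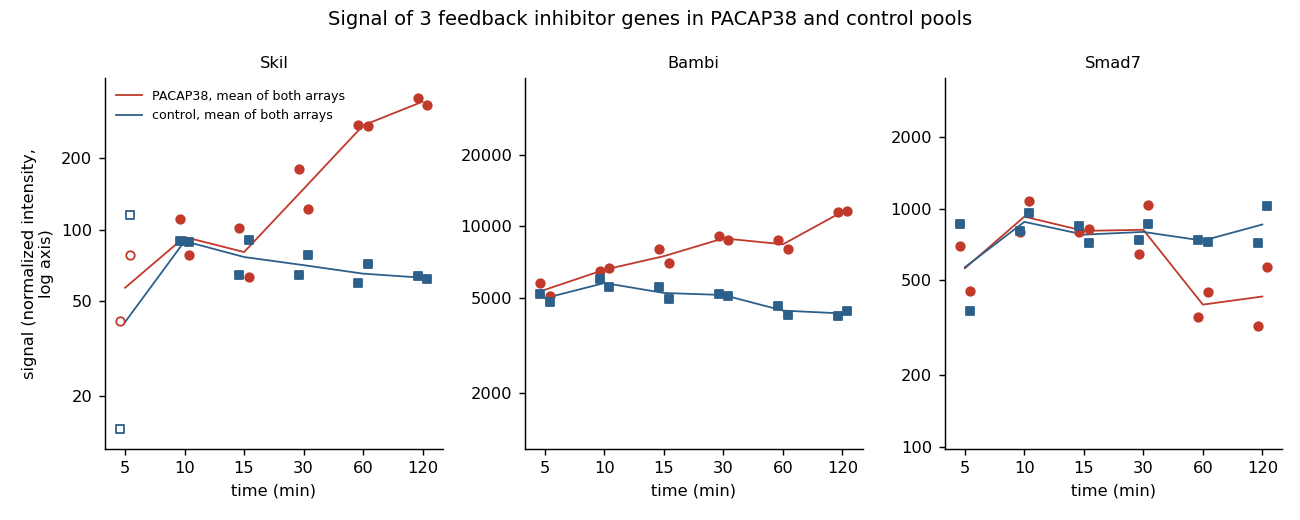
Normalized signal (log axis) of *Skil*, *Bambi* and *Smad7* with PACAP38 (circles) and in the control (squares) at the 6 time points. Points are single arrays, lines join the means, and open symbols mark an RNA not well above background on both arrays. *Skil* reaches 345 and *Bambi* 11521 with PACAP38 at 120 min, against 62.9 and 4302 in the control, and *Smad7* lies at 396 and 428 with PACAP38 at 60 and 120 min against 735 and 859.

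The course over time was tested with the slope of the log2 fold on log2 minutes, for which the 6 time points are the replicates. Over 20203 probes 0.525% had a positive and 0.203% a negative slope at an adjusted p below 0.05 (limma), and of the 8 genes tested 1, *Bambi*, passed. Its log2 fold increased by 0.28 ± 0.03 (SE, n = 6) per doubling of time, with an adjusted p of 0.0418 (limma). The call for *Bambi* did not survive leaving out any single time point (adjusted p between 0.0545 and 0.165, slopes from 0.25 to 0.31). With slide as a block its slope was 0.28 and the adjusted p 0.894. Within the slides the log2 fold of *Bambi* increased by 0.07 from 5 to 10 min, by 0.28 from 15 to 30 min and by 0.50 from 60 to 120 min. The slopes of *Skil* (0.54, adjusted p = 0.0743) and *Smad7* (-0.25, adjusted p = 0.0938) had unadjusted p-values below 0.05 in the same limma fit, as had 5805 of the 20203 probes, and missed the adjusted limit. For *Inhba* and *Fst* no slope is given, since their brightest probes had no measured ratio up to 30 min and a lower bound after that. With time in minutes in place of log2 minutes *Skil* and *Bambi* passed with a positive and *Smad7* with a negative slope, as did 2068 probes with a positive and 3267 with a negative slope in all. With slide as a block in the fit on log2 minutes the slope of *Skil* was 0.32 (adjusted p = 0.894, limma) and that of *Smad7* -0.016 (adjusted p = 0.983). Within the slides the log2 fold of *Smad7* changed by 0.09, -0.02 and -0.11 from the earlier to the later time.

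**Figure D4:**
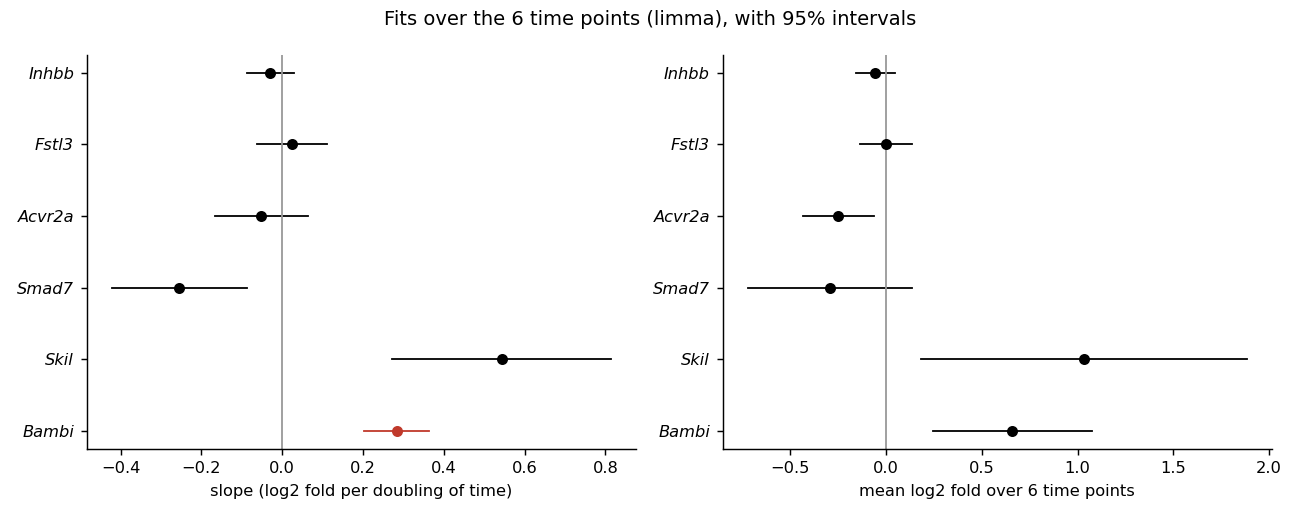
Slope of the log2 fold per doubling of time (left) and mean log2 fold over the 6 time points (right) for the 6 genes whose control pools could be measured in part or throughout. Points are limma estimates over 6 time points, bars are 95% intervals without adjustment for the number of probes, and red marks an adjusted p below 0.05. *Bambi* is the red point, with a slope of 0.28, and the intervals of *Inhbb* and *Fstl3* are short and include 0.

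The rest of the pathway was followed with a list of 102 other ligands, antagonists, receptors, Smads, turnover factors and target genes, of which 93 are on the array and 50 passed the background filter. By the brightest probe of each gene, none of the 93 was called at 5, 10 or 15 min. At 30 min 1 was called, against 0.351% of all probes, and at 60 min 1 was called lower, against 0.376%. At 120 min 2 were called higher and 2 lower, against 1.95% and 1.53% of all probes. None of the 50 passed the slope test at an adjusted p of 0.05 (limma, lowest adjusted p = 0.0506), and 16 had an unadjusted p below 0.05, against 5805 of the 20203 probes tested.

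*Acvr2b*, the second activin type II receptor gene, was called lower at 120 min, with a fold of 0.362 (0.335 and 0.392 on the 2 arrays) after 0.597 at 60 min. A second *Acvr2b* probe with both RNAs well above background gave 0.723 at 120 min and was not called, and on the remaining one, whose treated RNA was not well above background, the control was at least 1.89-fold higher, not called. *Smad1*, a Smad of the bone morphogenetic protein branch, was called higher at 120 min at 2.97-fold (3.33 and 2.65) after 1.68-fold at 60 min, and its dimmer probe gave 1.76-fold at 120 min, not called. *Gdf5*, a ligand of the same branch, was not well above background with PACAP38 at 120 min, and its control was at least 1.499-fold higher. Of 13 Smads and nuclear partners that passed the filter, *Smad1* was the only one called, while 11 had folds below 1 at 120 min, among them *Smad6* at 0.618, *Ski* at 0.596 and *Ep300* at 0.610, none of which was called. The median log2 fold of the 13 at that time was -0.57, against -0.04 for all probes that passed the filter. That of the other classes was -0.05 for ligands, 0.25 for extracellular antagonists, -0.20 for receptors, -0.03 for turnover factors and 0.56 for target genes.

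Of the target genes, *Cdkn1a*, which encodes the cyclin-dependent kinase inhibitor p21, was called higher at 120 min at 2.91-fold (3.22 and 2.62), and its second probe was called at 2.81-fold. *Id1* and *Id3* encode inhibitors of basic helix-loop-helix factors and differed in direction. *Id3* was called higher at 30 min at 2.10-fold (2.09 and 2.12), with later folds of 2.02 and 1.37 that were not called, and its other 2 probes gave 1.92-fold and 1.90-fold at 30 min. *Id1* had a fold of 1.36 at 30 min, was called lower at 60 min at 0.393 (0.392 and 0.394), and gave 0.456 and 0.548 on the 2 arrays of 120 min. The difference between *Id1* and *Id3* was not tested.

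**Figure D5:**
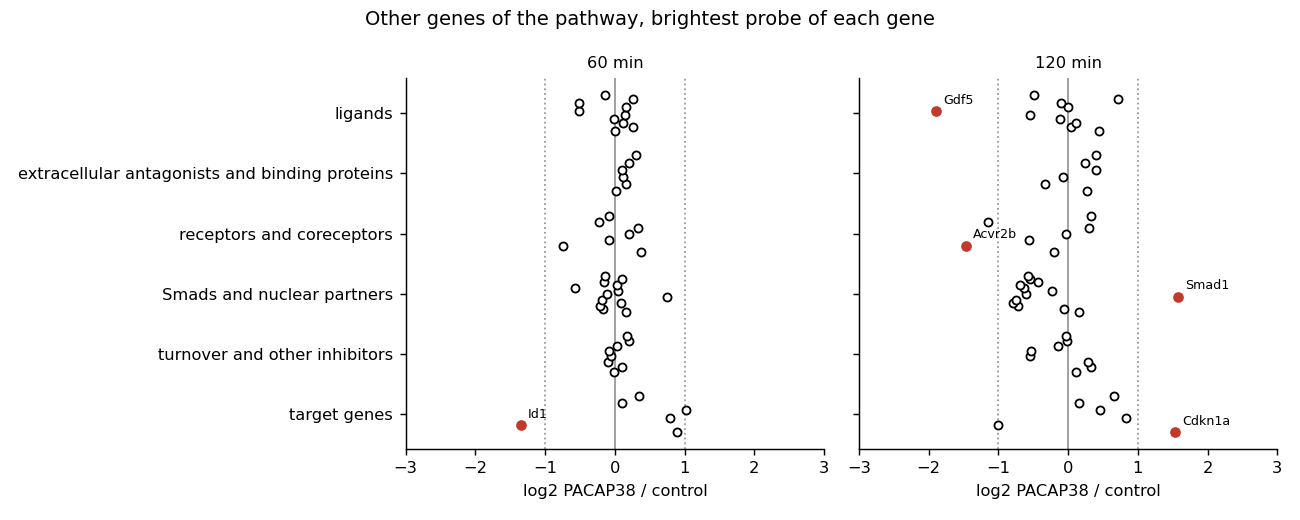
Log2 ratio of PACAP38 to control at 60 min (left) and 120 min (right) for the 50 other pathway genes that passed the background filter, by role. Each point is the brightest probe of a gene, the mean of both arrays; red points were called and carry their names, and dotted lines stand at 2-fold. *Id1* is the red point at 60 min, and *Gdf5*, *Acvr2b*, *Smad1* and *Cdkn1a* are those at 120 min; the treated signal of *Gdf5* was not well above background there.

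Promoters were searched because some members were called together at 60 and 120 min. RefSeq entries of build GRCr8 were held for 9 of the 10 genes, all but *Fst*, as 250 bases before to 50 after the start, and 5 motifs were searched on both strands in them and in 33469 promoters in all. The full cAMP response element TGACGTCA was found in *Skil* alone, at base -53 from the start, and in 1.83% of all promoters. Its short form TGACG, part of the former, was found in *Skil*, *Acvr2a*, *Smad3* and *Bambi* and in 21.2% of all. The Egr motif GCGNGGGCG was found in *Skil* and *Inhbb* and in 4.98% of all. The AP-1 motif TGANTCA and the Smad palindrome GTCTAGAC were found in none of the 9 and in 7.33% and 0.197% of all. The bases before the start of the 3 called genes with an entry are shown, with matches in capitals.
Skil (chr2:114203573-114203822, minus strand): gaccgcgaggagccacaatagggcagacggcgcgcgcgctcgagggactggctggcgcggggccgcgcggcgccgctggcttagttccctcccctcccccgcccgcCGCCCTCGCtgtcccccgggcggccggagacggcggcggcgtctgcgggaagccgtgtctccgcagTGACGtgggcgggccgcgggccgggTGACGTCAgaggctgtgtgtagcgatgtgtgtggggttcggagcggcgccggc
Bambi (chr17:58821004-58821253, minus strand): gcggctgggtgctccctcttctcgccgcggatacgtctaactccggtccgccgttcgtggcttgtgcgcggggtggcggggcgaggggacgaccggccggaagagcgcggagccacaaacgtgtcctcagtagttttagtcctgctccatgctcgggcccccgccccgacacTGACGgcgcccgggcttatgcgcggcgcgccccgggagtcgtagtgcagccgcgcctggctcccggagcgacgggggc
Inhba (chr17:53804509-53804758, minus strand): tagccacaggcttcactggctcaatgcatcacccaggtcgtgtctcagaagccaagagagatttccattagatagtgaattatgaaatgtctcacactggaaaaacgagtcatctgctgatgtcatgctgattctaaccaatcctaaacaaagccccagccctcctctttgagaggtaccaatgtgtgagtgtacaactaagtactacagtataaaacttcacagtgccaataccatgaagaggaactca
In *Skil* the capitals mark, from the left, the Egr motif, which reads on the strand opposite to the one printed, a short form at -78 and the full element, and in *Bambi* a short form at -78. *Inhba* has no match to the 5 motifs in this window. A match is a description of the letters and no binding was measured.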

How the data were processed

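PC12 RNA pools were compared on 12 arrays of 2 colours, 2 per time point with exchanged dyes. The authors scanned them with Agilent Feature Extraction, given as version 12.0.3.1 in the file headers and 11.0.1.1 in the submitters' processing notes. As deposited, the Cy3 and Cy5 intensity values were background-subtracted and LOWESS dye-normalized, and the deposited p-value of a spot is that of the software. The deposited log10 ratios and the deposited table of ratios are log10 of Cy5 over Cy3, not turned for the dye exchange, and the deposited flags, a score of 0 or 1, mark outliers and signals well above background.

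The processed intensities gave a log2 ratio for each array, PACAP38 over control. Outlier spots (197 to 267 per array) and the 1639 control spots were left out, and spots of 1 probe were averaged. Folds are geometric means over the pair of arrays. Levels and bounds were taken per channel after Aquantile normalization. A bound ("at least") divides the mean of the bright RNA by a floor for the dim one: on each array either its own signal or the dimmest signal that was still well above background, whichever is higher. Other RNAs not well above background can read above this floor, as a dim *Inhbb* probe did in the control of 60 min (36.9 on 1 array). A higher floor would give smaller bounds. Of several probes the one with the highest mean intensity stands for the gene. RefSeq accessions matched 12 of the 19 probes.

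The slope on log2 minutes and the mean were fitted with limma 3.58.1 in R 4.3.3 on the dye-averaged log2 folds, each time point being 1 replicate, with Benjamini-Hochberg adjustment over 20203 probes. The sources used here do not say whether the pools came from separate cultures, so p-values do not measure the spread between cultures. They rest on the scatter of the time points about the fitted line or mean. This scatter holds differences between these pools and any change with time that the fit does not describe. In simulated data (20203 probes, 200 of them changed) the slope fit recovered 96.5% of them and 6.3% of its calls were false. For the mean fit these values were 84.0% and 8.2%. Whether these rates hold for the measured probes, at slopes such as the 0.28 of *Bambi*, was not tested. Other steps used Python 3.11.15 with pandas 2.3.3, numpy 2.4.6 and matplotlib 3.10.9.

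Named are the 10 members and called genes of the wider list (at most 10). The 5 genes nearest to *Inhba* and to *Fst* in their log2 folds, also part of the rule, are not given, since both genes had controls at background. Members and lists were chosen with earlier results of these data known. The alternatives were 1 array alone, a fold limit of 1.5, no spot p limit, normexp background correction (offset 50) with loess or median centring, the deposited table of ratios, filters on dim probes, slide as a block, time in minutes, all probes of a gene and leaving out each time point. Proteome measurements were not analysed here.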

Additional observations from a re-analysis of the deposited data

Results flagged for a closer look

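The slope of *Bambi*, 0.28 log2 units per doubling of time, differed from 0 by the limma test over the 6 time points (adjusted p = 0.0418). Other settings lost this call or added other members, and the range under the alternatives is given with the other results that depend on the processing.

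The control signal of *Smad3* at 15 min, 10.1, stood apart from the other 5 control pools by Dixon's criterion, but this probe was not well above background in any pool. Such a gap arises by chance in about 1 of 20 groups, and 10 genes were examined.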

How the results depend on the processing

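The deposited table of ratios holds the same ratios as the processed intensities and changed no value. Of the genes called higher at 60 min, 3, *Inhba* alone (1) remained with normexp and loess or with median centring, and of the 4 at 120 min *Inhba* alone (1) with median centring. Both settings add an offset of 50, and an added constant draws the ratios of dim probes towards 1. With loess the log2 fold of *Fst* at 60 min was 0.23 and that of *Skil* at 120 min 0.92. How much of these lower values comes from the offset was not tested. With PACAP38 in Cy5 only, or with a fold limit of 1.5, *Smad7* (1) was called lower at 60 and at 120 min, and 1 gene was called higher at 30 min, *Skil* in Cy5 only and *Bambi* with the limit of 1.5. No member was called at 5, 10 or 15 min under any alternative run.

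The slope call of *Bambi* was kept with normexp and loess and lost (0 genes) with median centring, with either array alone, without the filter on dim probes, with slide as a block and on leaving out each time point in turn. Without 5 min *Skil* passed instead, so that 0 to 1 gene passed over the time points left out. Its adjusted p ranged from 0.00921 to 0.894 over 14 alternatives. With time in minutes 4 genes had a positive and 1 a negative slope past the limit; the 4 include *Inhba* and *Fst*, whose ratios are bounds or were not measured. Over all probes the 106 positive and 41 negative slopes became 23 and 6 with normexp and loess, 1 and 0 with median centring, 3 and 0 or 27 and 2 with PACAP38 in Cy5 or Cy3 only, 0 and 0 without the filter or with slide as a block, 2068 and 3267 with time in minutes, and between 0 and 121 and between 0 and 32 on leaving out a time point. For the mean, *Skil* (1) passed with PACAP38 in Cy5 only and *Bambi* (1) with a positive and *Inhbb* (1) with a negative mean in Cy3 only, where 1366 and 944, and 1393 and 2142, probes passed in each direction; dye effects do not cancel in 1 orientation. The causes of these and the other differences were not tested. Counts of probes called at a time point moved by over 1.5 times with single arrays, and at most times with the fold limit of 1.5 and normexp. Exceptions were counts that stayed at 0 and, with that fold limit, higher calls at 10 min (27 to 38) and 15 min (37 to 55). Without the spot p limit they moved so at some earlier times (from 27 to 47 higher at 10 min, for example). At 120 min the counts ranged from 179 to 1518 higher, against 799, and from 109 to 1631 lower, against 626.

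The fits use ratios of the treated pool to the control pool of the same time point, so the pairing of pools is part of them. Signal over background limits *Acvr1b* and *Smad3*, for which no ratio is given, and the early time points of *Inhba* and *Fst*.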
